A study of Homo sapiens with 4 samples.

Results

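The cytosolic nucleic acid sensing genes are a set of 10 genes chosen by name for their role in detecting DNA or RNA where it should not be. The set holds CGAS, IFI16, TREX1, STING1, RIGI, IFIH1, TLR3, MAVS, TBK1 and IKBKE, out of 19222 protein-coding autosomal genes in the annotation. H3K27ac HiChIP loops were examined in M14 cells, an established human melanoma line with a hairpin construct that lowers STAG2, 1 of the cohesin subunits, when doxycycline is given. HiChIP ligates neighbouring pieces of chromatin and enriches the ligated pieces with an antibody, here against acetylated lysine 27 of histone H3, which marks active promoters and enhancers. Cells cultured for 5 days without doxycycline formed the WT group, and cells given doxycycline for those 5 days formed the STAG2-KD group. Both groups therefore carried the hairpin construct, and the drug and the knockdown cannot be told apart. The labels listed 2 samples per group, and 1 loop list per group was analysed, so the lists were compared without replicates and without p-values.

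The pathway begins when DNA in the cytosol binds cGAS, which makes a cyclic dinucleotide that activates the adaptor STING. Double-stranded RNA is bound by RIG-I and MDA5, the products of RIGI and IFIH1, which signal through MAVS on mitochondria, and by TLR3 in endosomes. These routes converge on the kinases TBK1 and IKK-epsilon, which activate the transcription factor IRF3 and thereby type I interferon genes, while the exonuclease TREX1 degrades cytosolic DNA and limits the signal. In melanoma cells the cGAS and STING route is often weakened.

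A loop was assigned to a gene when the start of any annotated transcript of it lay in either of the loop's 5 kb anchors, and the anchor at the far end was called its partner. A loop was called shared when the same pair of anchors was present in both lists. All coordinates are on hg19.

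Proximal promoter sequences are shown for 5 of the genes to set beside the loops what lies just upstream of their starts. RefSeq promoters (GRCh38.p14) were found for 8 of the 10 genes, all but CGAS and STING1, and were located in the GRCh37 sequence by exact match. Only bases outside annotated exons are printed, on the strand of the gene, and the windows of TREX1, TBK1 and TLR3 lay almost wholly in exons. Capitals mark matches to the cores of an interferon-stimulated response element (ISRE, GAAANNGAA), an NF-kappaB site (GGGANNTTC) or a GC box (GGGCGG), on either strand. ISRE or NF-kappaB cores stood upstream of IFI16 (chr1:158979447-158979681, plus strand), RIGI (chr9:32526207-32526444, minus strand) and IFIH1 (chr2:163175195-163175349, minus strand). MAVS (chr20:3827231-3827445, plus strand) and IKBKE (chr1:206643569-206643818, plus strand) are given for contrast.
IFI16: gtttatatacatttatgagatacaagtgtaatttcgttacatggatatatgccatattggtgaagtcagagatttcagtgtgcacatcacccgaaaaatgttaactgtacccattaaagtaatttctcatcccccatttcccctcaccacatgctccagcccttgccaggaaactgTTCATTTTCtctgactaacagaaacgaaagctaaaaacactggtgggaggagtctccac
RIGI: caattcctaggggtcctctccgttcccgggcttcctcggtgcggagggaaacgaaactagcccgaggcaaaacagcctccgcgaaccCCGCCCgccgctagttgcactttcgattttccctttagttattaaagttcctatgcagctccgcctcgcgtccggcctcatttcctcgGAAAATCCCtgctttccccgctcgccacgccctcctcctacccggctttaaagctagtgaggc
IFIH1: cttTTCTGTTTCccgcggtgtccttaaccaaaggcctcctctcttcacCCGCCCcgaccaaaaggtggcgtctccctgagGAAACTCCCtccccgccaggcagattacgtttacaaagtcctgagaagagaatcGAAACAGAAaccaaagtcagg
MAVS: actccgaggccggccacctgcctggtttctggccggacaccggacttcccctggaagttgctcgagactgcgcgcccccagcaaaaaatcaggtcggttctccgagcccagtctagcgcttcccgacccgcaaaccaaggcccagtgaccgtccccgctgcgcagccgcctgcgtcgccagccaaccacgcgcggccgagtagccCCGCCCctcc
IKBKE: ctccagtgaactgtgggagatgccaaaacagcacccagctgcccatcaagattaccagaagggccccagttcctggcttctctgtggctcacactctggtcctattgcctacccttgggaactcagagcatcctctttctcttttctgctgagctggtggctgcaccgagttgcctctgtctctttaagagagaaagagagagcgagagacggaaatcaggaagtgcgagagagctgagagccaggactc

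In the 250 bases upstream of the start, an ISRE core was found in 2 of the 8 genes, IFI16 and IFIH1, and in 6.88% of 35116 RefSeq promoters. IFI16 has 2 entries in that table, and the other one (chr1:158978531-158978780), which is not printed, held none of these motifs. An NF-kappaB core was found in RIGI and IFIH1, and in 3.52% of promoters. IFIH1, which encodes MDA5, held 4 ISRE core matches in its full window, 3 of which overlapped each other at the edge of an exon of the neighbouring gene GCA. GC boxes were found in RIGI, IFIH1, TLR3 and MAVS, against 42.6% of promoters. The E-box CACGTG was found in TBK1 alone of the 8, against 6.34% of promoters. The letters of AP-1 (TGANTCA, in 6.57% of promoters) and CRE (TGACGTCA, in 1.65%) were found in none of the 8. Motif content did not sort the genes with loops from those without: IFIH1 held the most motif matches and had no loop at a start, and IKBKE held no match and had none either. In base composition, the 3 genes without a loop had 39.2% (TLR3), 51.2% (IFIH1) and 54% (IKBKE) of G and C. The genes with loops had 58% (TREX1), 59.6% (RIGI), 66.8% (TBK1) and 70.4% (MAVS), and IFI16 was the exception at 40.4%. With 8 genes this is a description.

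In WT cells 7 of the 10 genes had a loop at a transcript start, against 39.1% of all protein-coding genes. In STAG2-KD cells 6 of the 10 did, against 36.8%. The 10 genes held 27 loops in WT and 24 in STAG2-KD. IFI16 alone held 11 and 8 of these, TREX1 6 and 4, STING1 3 and 5, MAVS 3 and 5, TBK1 2 and 1, RIGI 1 and 1, and CGAS 1 and 0. IFIH1, TLR3 and IKBKE had none in either list. The order of the genes was therefore led by IFI16 and TREX1 in WT, while in STAG2-KD TREX1, STING1 and MAVS lay within 1 loop of each other. Without replicates no spread was available to separate neighbours in that order.

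Fewer loops in STAG2-KD than in WT were listed for 4 genes, CGAS, IFI16, TREX1 and TBK1, against 19.4% of all protein-coding genes. More loops in STAG2-KD were listed for 2 genes, STING1 and MAVS, against 15.3%. Among the 8563 genes with a loop in either list, 43.5% had fewer and 34.4% had more, and among the 7 looped sensing genes the shares were 57.1% and 28.6%. The direction at IFI16 and at TBK1 rested on which annotated starts were counted, as described at each gene. When only the canonical transcript of each gene was used, 15 loops remained in WT against 18 in STAG2-KD, so the order of the totals turned.

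**Figure D1:**
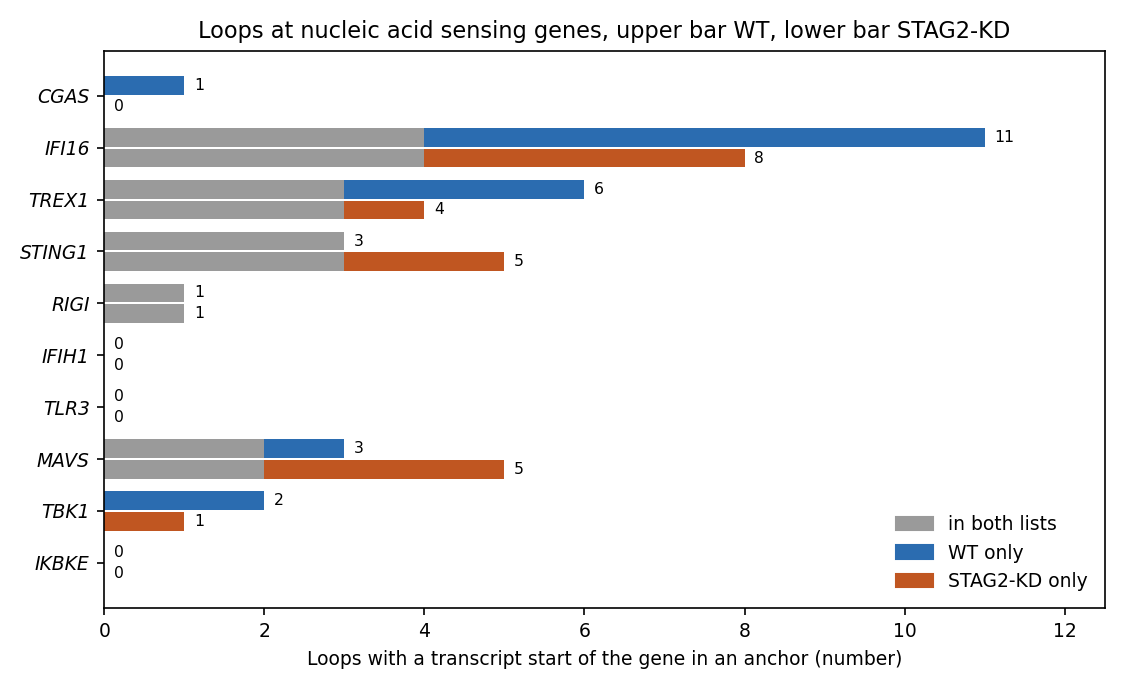
Loops (x axis, number) with an anchor at a transcript start of each sensing gene (y axis) in the WT and STAG2-KD lists, 1 list per group, split into shared loops and loops of 1 list only. IFI16 had the longest bars (11 and 8), STING1 kept all 3 of its WT loops, and IFIH1, TLR3 and IKBKE had no loop.

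The bars split each gene's loops by sharing. Of the 27 WT loops, 13 were shared with STAG2-KD, or 48.1% (95% exact binomial interval 28.7 to 68.1). These were 54.2% of the 24 STAG2-KD loops (32.8 to 74.4). Over all loops with a protein-coding start at an anchor, the shared part was 41.2% (of 15175) in WT and 43.4% (of 14385) in STAG2-KD, and both values lay inside the intervals of the sensing genes. The intervals cover the counting of loops only. Of the 14 WT-only loops, all had at least 1 anchor in use by another loop of the STAG2-KD list, which for 11 was the own anchor of the gene, and 2 had both. Over the 8928 WT-only loops with a protein-coding start, 92.2% had at least 1 and 44.7% had both. Of the 11 loops found in STAG2-KD only, both anchors were in use in WT for 6 and a single anchor for 5, and over 8138 such loops with a protein-coding start 46.2% had both and 92.8% at least 1. Use of at least 1 anchor in both states was therefore near that of the genome. Use of both anchors was not near it for the WT-only loops, with 2 of 14 beside 44.7%, and this difference was not tested. IFI16 weighed on it: each of its 7 WT-only loops had a partner anchor without a loop in STAG2-KD. Loops of 1 gene share an anchor and are not independent.

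Among the DNA sensors, CGAS, which encodes the enzyme that makes the dinucleotide signal, had a single loop. The gene lies on the minus strand of chromosome 6 (chr6:74123238-74162020). In WT its start anchor (chr6:74160001-74165000) was joined over 70 kb to the start of EEF1A1 (chr6:74230001-74235000), a translation elongation factor gene. In STAG2-KD no loop touched the start of CGAS. The EEF1A1 anchor itself was in use in both lists, with 7 loops in WT and 8 in STAG2-KD. The STAG2-KD loop closest to the lost one ran from the start of MTO1 (chr6:74170001-74175000) to the same EEF1A1 anchor, over 60 kb. Its left anchor lay 2 bins beyond that of CGAS, and 7.98 kb separated it from the CGAS start. One list entry made the whole difference at CGAS.

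IFI16 encodes a DNA-binding protein of the PYHIN family, whose other members AIM2, PYHIN1 and MNDA are its neighbours on chromosome 1 (IFI16 at chr1:158969758-159024945, plus strand). It had 11 loops in WT and 8 in STAG2-KD, and 0.926% and 2.16% of protein-coding genes had more. Both lists held 4 of them. A loop of 20 kb joined 2 starts of the gene itself (chr1:158965001-158970000 and chr1:158985001-158990000). A loop of 75 kb reached downstream to the start of AIM2, the sensor of the DNA inflammasome (chr1:159040001-159045000). The other 2 ran upstream, over 490 kb to chr1:158475001-158480000 and over 990 kb into an intron of KIRREL1 (chr1:157985001-157990000). The bin at 490 kb held no transcript start and no protein-coding gene. Both shared long loops thus led in the same direction, and the number of loops at the KIRREL1 anchor was 6 in WT and 8 in STAG2-KD.

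The 7 loops at IFI16 that were listed in WT only ran mostly upstream through the PYHIN cluster. Among them were loops to an intron of PYHIN1 at 30 kb, the start of PYHIN1 at 65 kb, a bin at 180 kb whose nearest coding start was that of MNDA, and a bin at 475 kb. A further one ran 870 kb upstream to a non-coding RNA gene, LINC01704, and 1 ran 90 kb downstream into an intron of AIM2. The 4 loops in STAG2-KD only had another layout. One of 20 kb and one of 45 kb stayed inside IFI16, the latter ending at its last exon (chr1:159020001-159025000). The remaining pair ran 470 kb and 845 kb upstream. The loop of 470 kb lay 1 bin from the WT-only loop of 475 kb, so this part of the turnover was a shift by 1 bin. The loop of 845 kb lay 4 bins from the WT-only loop of 870 kb, which left from another start bin of IFI16. The last exon of IFI16 was an anchor of 4 loops in STAG2-KD and of none in WT. From it, 2 STAG2-KD loops ran to KIRREL1 introns over 1035 kb and 1050 kb, and 1 ran 40 kb into AIM2.

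The count at IFI16 depended on a single annotated start. The anchor chr1:158965001-158970000 held 9 of the 11 WT loops and 5 of the 8 STAG2-KD loops, yet 1 transcript starts there, at position 158969758, and its 3' end is marked as not found in the annotation. The small gene PYDC5 also has an exon in that bin, so a loop at this anchor cannot be given to IFI16 alone. The canonical transcript starts at position 158979697, in the bin chr1:158975001-158980000 together with 7 further transcripts. That bin had 1 loop in WT and 2 in STAG2-KD. Without the outermost start, IFI16 had 3 loops in WT and 4 in STAG2-KD, so the direction turned. The loops to AIM2, PYHIN1 and the 490 kb bin all rested on the outermost start, and the shared 990 kb loop to KIRREL1 rested on the canonical one. The promoter printed above with its ISRE core lies just upstream of the canonical start.

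**Figure D2:**
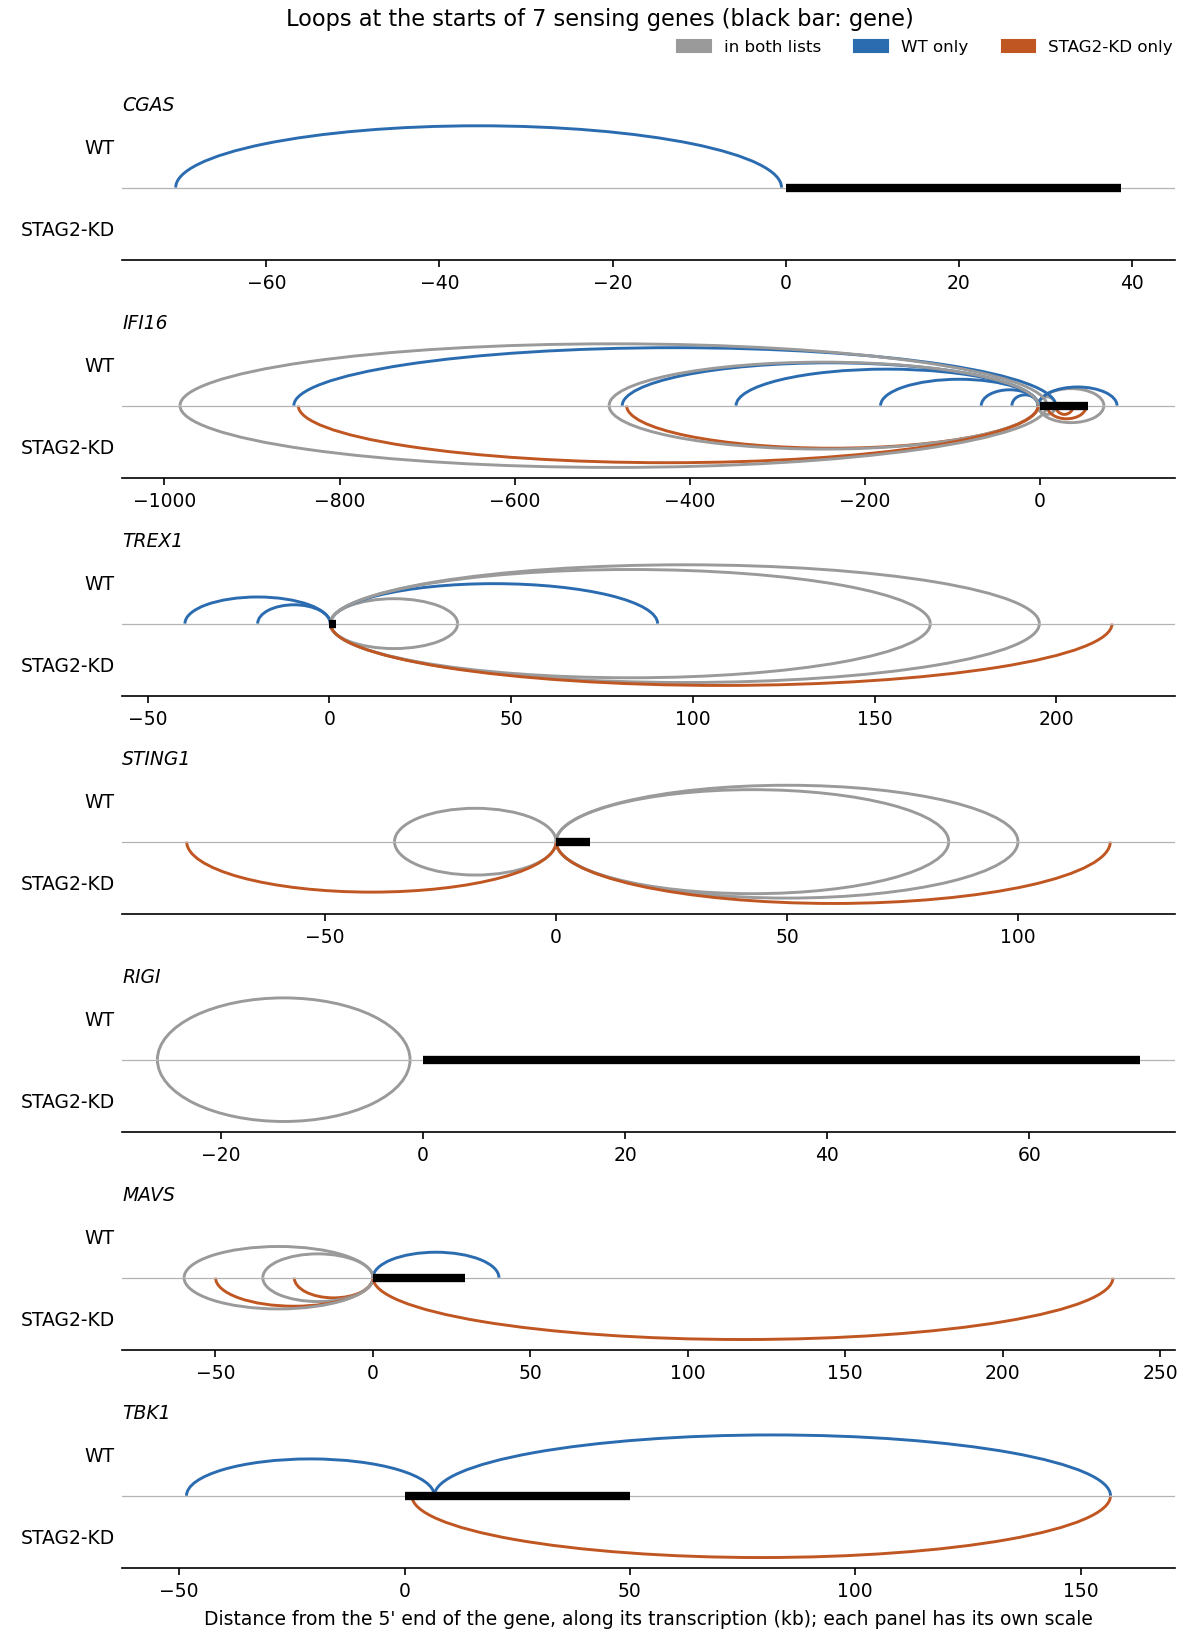
Loops at the starts of the sensing genes with loops, drawn as arcs against distance from the gene start in kb, with WT above and STAG2-KD below the line. Colours separate shared loops from loops of 1 list only, and arc height follows the square root of the loop distance. IFI16 had the long upstream arcs (up to 990 kb), and the other genes stayed within 235 kb.

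The arcs at TREX1 all led to bins with starts of other genes. TREX1 (chr3:48507210-48509044, plus strand) encodes the exonuclease that clears DNA from the cytosol. Its start bin (chr3:48505001-48510000) had 6 loops in WT and 4 in STAG2-KD, and it also holds exons of ATRIP and SHISA5. The 3 shared loops all ran downstream, to the starts of SHISA5 at 35 kb, SLC26A6 at 165 kb and CELSR3 at 195 kb. Loops in WT only reached ATRIP at 20 kb and PLXNB1 at 40 kb on the upstream side, and PFKFB4 at 90 kb downstream. The single loop in STAG2-KD only reached NCKIPSD at 215 kb downstream. All 10 entries thus had a protein-coding start at the far end. No upstream loop remained in STAG2-KD, and the median distance was 65 kb over the 6 WT loops and 180 kb over the 4 STAG2-KD loops. In place of the PLXNB1 loop, STAG2-KD listed one between PLXNB1 and ATRIP, 2 bins away and 30 kb long. With the canonical start alone the counts were the same.

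STING1 encodes the adaptor of the endoplasmic reticulum that binds the product of cGAS, and lies at chr5:138855118-138862520 on the minus strand. Its start bin (chr5:138860001-138865000) had 3 loops in WT and 5 in STAG2-KD, and all 3 WT loops were also in the STAG2-KD list. Starts of the chaperone gene DNAJC18 were reached downstream, in separate bins at 85 kb and 100 kb. The third partner (chr5:138895001-138900000) lay 35 kb upstream and held no transcript start and no protein-coding gene. The STAG2-KD list added a loop of 80 kb to the start of UBE2D2, a ubiquitin-conjugating enzyme gene (chr5:138940001-138945000). It also added one of 120 kb to a bin with an exon of DNAJC18. The nearest coding start to that bin was that of SPATA24, 0.223 kb off. In WT the UBE2D2 anchor was already joined over 45 kb to the bin that lay 35 kb upstream of STING1. The added STAG2-KD loop to UBE2D2 thus connected 2 anchors that the WT list also used. The median distance was 85 kb in both lists. DNAJC18 was the gene most alike in its loops, with 4 list entries in common of 10 at either gene over both lists (Jaccard index 0.4).

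Among the RNA sensors, RIGI alone had a loop at a start. RIGI (chr9:32455300-32526206, minus strand) encodes RIG-I, the sensor of short double-stranded RNA with a triphosphate end. Its only loop was the same in WT and STAG2-KD and spanned 25 kb, from chr9:32525001-32530000 to the starts of TOPORS and SMIM27 (chr9:32550001-32555000). The partner had 3 loops in WT and 4 in STAG2-KD. The promoter of RIGI printed above, with its NF-kappaB core, lies in the own anchor of this loop.

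IFIH1 (chr2:163123584-163175194, minus strand) had no loop at any of its starts. Within the gene body, 3 loops were anchored in WT and none in STAG2-KD. These joined the body to FAP, which encodes fibroblast activation protein, over 40 kb, 55 kb and 65 kb. The anchor closest to a start (chr2:163115001-163120000) lay 4.65 kb away in both lists and carried 1 loop in each. That start, at position 163124647, belongs to 1 transcript that is not protein-coding and lies near the 3' end of the gene. The canonical start is at position 163175194, so this anchor was not next to the main promoter. The main start bin (chr2:163175001-163180000) also holds the start of GCA, so a loop there would not have been specific to IFIH1.

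TLR3 (chr4:186990065-187009227, plus strand), the endosomal receptor of double-stranded RNA, had neither a loop at a start nor one anchored in its body. The closest anchor in WT was 150.1 kb from a start, in an intron of SORBS2, and the closest in STAG2-KD was 45.1 kb away. The gene was thus without a listed H3K27ac contact in either state. A position list cannot separate a contact that was absent from one just short of the caller's limit.

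The adaptor of the RNA route, MAVS, lies at chr20:3827446-3856770 on the plus strand. Its single start bin (chr20:3825001-3830000) had 3 loops in WT and 5 in STAG2-KD, and 2 were shared. The shared loops both ran upstream, over 35 kb to the start of a non-coding RNA gene and over 60 kb to the bin with the starts of CDC25B, a cell-cycle phosphatase gene, and CENPB, a centromere protein gene. In WT only, a loop of 40 kb led downstream to PANK2. In STAG2-KD only, loops led upstream to AP5S1 at 25 kb and to a further CDC25B start at 50 kb. A further one led 235 kb downstream to a bin with no transcript start and no protein-coding gene (chr20:4060001-4065000). The nearest coding start to that far bin was that of SMOX, 36.6 kb off. The anchor of CDC25B and CENPB had 7 loops in WT and 3 in STAG2-KD, so MAVS had more entries in STAG2-KD while this partner had fewer. Of all protein-coding genes, 12.1% had more loops than MAVS and STING1 in WT and 5.68% in STAG2-KD.

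Of the kinases, TBK1 (chr12:64845870-64895894, plus strand) had 2 loops in WT and 1 in STAG2-KD, with none shared. The WT loops left from chr12:64850001-64855000 and led to XPOT, the tRNA exportin gene, 55 kb upstream, and to RASSF3, 150 kb downstream. The STAG2-KD loop left from the neighbouring bin chr12:64845001-64850000 and led over 155 kb to the same RASSF3 bin (chr12:65000001-65005000). The RASSF3 contact was therefore in both lists apart from a shift of 1 bin at the TBK1 end. The RASSF3 anchor had 6 loops in each list. The bin used in STAG2-KD holds 33 of the annotated TBK1 transcript starts, the canonical one included, and the bin used in WT holds 3, none of them protein-coding. Counting protein-coding transcripts or 1 start per gene left 0 loops in WT and 1 in STAG2-KD, so the direction turned with the choice of start.

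IKBKE (chr1:206643819-206670222, plus strand), which encodes IKK-epsilon, had no loop at a start and none anchored in its body. The closest anchor was 159 kb from a start in WT, at the start of DYRK3, and 28.8 kb in STAG2-KD, in a bin with 1 loop (chr1:206675001-206680000). At TLR3 and IKBKE alike, the closest anchor was nearer in STAG2-KD than in WT, and at CGAS it was the other way round.

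Across the set, the shortest loop was 20 kb and the longest 990 kb in each list, with a median of 75 kb in WT (95% order-statistic interval 40 to 165, 27 loops) and 82.5 kb in STAG2-KD (35 to 195, 24 loops). The median over all loops with a protein-coding start was 90 kb (WT) and 85 kb (STAG2-KD). Both lay inside the intervals of the sensing genes. Loops under 50 kb numbered 9 of 27 in WT and 8 of 24 in STAG2-KD, and 2 in each list were over 500 kb, all of them at IFI16. Over all loops with a protein-coding start, 28.1% and 30.1% were under 50 kb, and 3.09% and 4.16% were over 500 kb. Partners lay upstream of the gene in 16 WT loops and downstream in 10, and in STAG2-KD 11 lay upstream and 12 downstream. The loss on the upstream side came from IFI16, TREX1, CGAS and TBK1, while STING1 gained on both sides and MAVS on the upstream side.

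**Figure D3:**
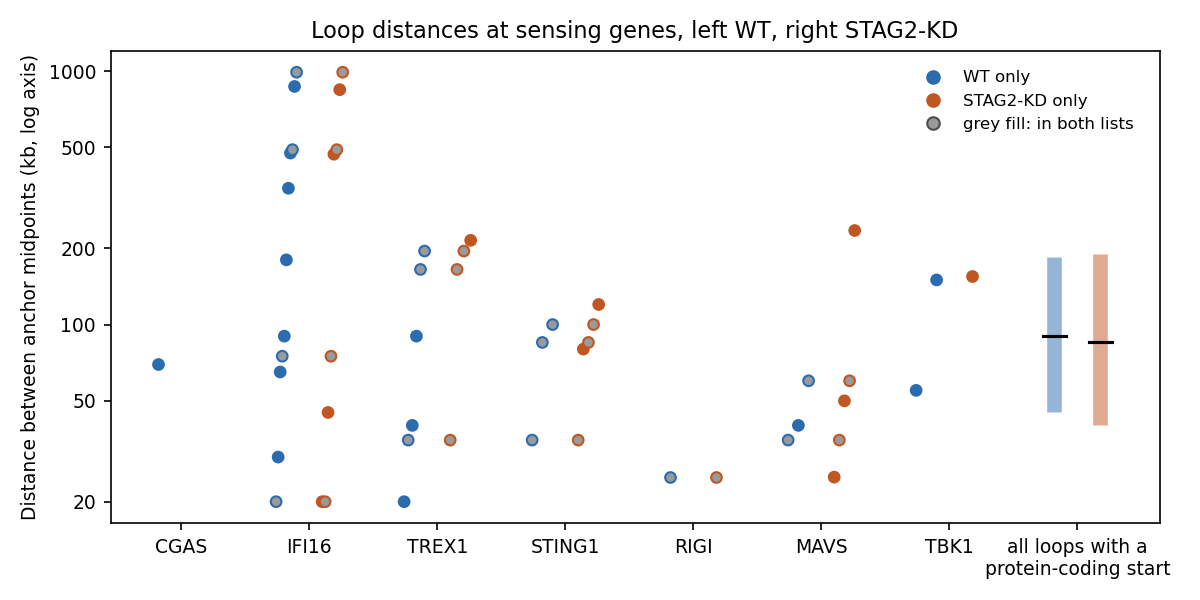
Distance between anchor midpoints (kb, log axis) of each loop at the sensing genes, 1 point per loop, by gene and list, with shared loops and loops of 1 list only marked apart. IFI16 covered the full range from 20 to 990 kb in both lists, and TREX1 lost its upstream loops of 20 and 40 kb and gained one of 215 kb.

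Among the genes with 3 or more loops in each list, the range of IFI16 was the same in both lists. The longest loop was longer in STAG2-KD at STING1 (100 kb in WT, 120 kb in STAG2-KD), TREX1 (195 kb and 215 kb) and MAVS (60 kb and 235 kb). A longest value tends to rise with the number of loops, which went from 3 to 5 at STING1 and MAVS and from 6 to 4 at TREX1. The share of all genes whose longest loop was longer was not counted. Another transcript start lay at the partner anchor in 19 of 26 WT loops, or 73.1% (95% exact interval 52.2 to 88.4). The share was 14 of 23 in STAG2-KD, or 60.9% (38.5 to 80.3). Of these partners, 16 in WT and 13 in STAG2-KD held a start of a protein-coding gene. Most partners without a start belonged to IFI16, and without that gene the share was 93.8% in WT and 81.3% in STAG2-KD. Over all loops with a protein-coding start, 43.5% in WT and 42.8% in STAG2-KD had a transcript start of any gene type at both anchors. Those shares count each loop once, while the shares at the sensing genes count partners from the gene's own anchor. The measures are therefore not alike, and no excess at the sensing genes can be read from them. The share at the sensing genes rested on alternative and non-coding starts: with 1 start per protein-coding gene it was 38.5% in WT and 30.4% in STAG2-KD. A strict core of the motif of CTCF, the factor that stops cohesin, was in none of the 46 anchors of these loops (0%, exact upper limit 7.71%). It was in 4.27% of all WT anchors, 4.20% of all STAG2-KD anchors and 1.89% of all 5 kb bins, and with 46 anchors the difference was not detectable.

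Further genes of nucleic acid sensing were taken from a list of 60, which includes the remaining DNA and RNA sensors, inflammasome adaptors, ubiquitin ligases of the pathway and interferon-induced effectors. Of these, 30 had a loop in WT and 29 in STAG2-KD, or 50% and 48.3%, beside 39.1% and 36.8% of all protein-coding genes. More loops in STAG2-KD were listed for 13 (21.7%) and fewer for 18 (30%), beside 15.3% and 19.4%. Among those with a loop in either list, 35.1% had more and 48.6% had fewer, beside 34.4% and 43.5% of all looped genes. The sum of loops was 80 in WT and 73 in STAG2-KD. Differences of 3 or more were listed for 6 genes. The share of all genes that differ as much was not counted, so these 6 are a description and are not set apart from other genes. DHX58, which encodes LGP2, the third RIG-I-like protein, had 0 loops in WT and 3 in STAG2-KD. IRF3, the factor that TBK1 phosphorylates, had 1 and 4, and OAS2, which makes the activator of RNase L, had 4 and 8. The opposite was listed for PYCARD, the inflammasome adaptor, with 3 and 0, for SEC24C, a coat protein of vesicle transport, with 3 and 0, and for RNF125, a ubiquitin ligase that acts on RIG-I, with 7 and 3. AIM2 had 1 loop in each list, the shared one to IFI16.

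**Figure D4:**
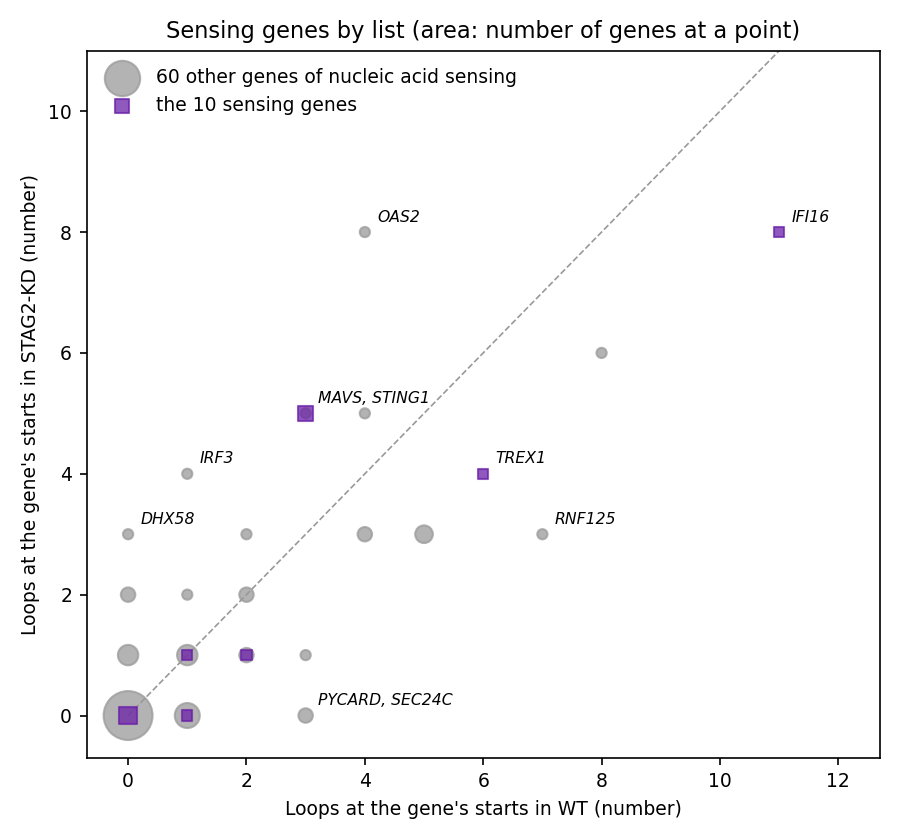
Number of loops at the starts of a gene in WT (x axis) and STAG2-KD (y axis) for the 10 sensing genes (squares) and 60 other genes of nucleic acid sensing (circles), with marker area showing how many genes share a point and a dashed line of equal numbers. IFI16 (11 and 8) lay at the far right, and STING1 and MAVS (3 and 5) lay above the line.

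Next in the pathway, among 16 genes of interferon receptors, JAKs and STATs, 10 had a loop in each list, with 6 higher and 5 lower in STAG2-KD. These are 62.5% with a loop in each list, 37.5% higher and 31.3% lower, beside 39.1% and 36.8% with a loop, 15.3% higher and 19.4% lower over all protein-coding genes. The 6 higher genes each had 1 loop more, while STAT3 (12 and 9), STAT6 (6 and 3) and TYK2 (5 and 2) each had 3 fewer. The sum of loops over the 16 genes was 43 in WT and 38 in STAG2-KD, so the count of directions and the totals differed. Among 9 interferon regulatory factors, 5 had a loop in each list (55.6%), with 4 higher (44.4%) and 1 lower (11.1%). Their sum of loops was 23 in WT and 31 in STAG2-KD. IRF1 had 7 and 13, IRF2 had 11 and 7, and IRF3 was named above. IRF3 and IRF7 are counted both here and among the 60 genes. The shares of genes with a loop in WT were 70% for the 10 sensing genes and 50% for the 60 further ones. A difference between these lists was not tested, since the genes were named with the pathway's results known.

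Of 8 melanocyte lineage genes, 7 had a loop in WT (87.5%) and 6 in STAG2-KD (75%), beside 39.1% and 36.8% of all protein-coding genes. Fewer loops in STAG2-KD were listed for 4 of them (50%) and more for 2 (25%), beside 19.4% and 15.3% of all protein-coding genes. Among those with a loop in either list the shares were 57.1% and 28.6%, beside 43.5% and 34.4% of all looped genes. These counts describe the genes and do not establish the origin of the cells. TYR had none in either list. Among 7 marker genes of other cell types, 5 had no loop in either list, and CD3E had 1 in WT and 3 in STAG2-KD. The share of the 7 with a loop was 28.6% in each list, beside 39.1% and 36.8% of all protein-coding genes. A loop in either list was found at 8563 of 19222 protein-coding genes, so genes without one were common. A contrast with the melanocyte genes was not tested. The whole lists held 27289 loops in WT and 25621 in STAG2-KD, without read counts, so the depth behind each loop was unknown.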

How the data were processed

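H3K27ac HiChIP was described by the labels for 2 WT and 2 STAG2-KD samples of M14 cells, and samples were grouped by their titles. Per the study's methods, the authors used HiC-Pro for alignment to hg19, hichip-peaks for H3K27ac peaks and FitHiChIP for the loops. The methods state a false discovery rate limit and a replicate filter for the differential loops. Whether the deposited lists passed either, whether a list merges both samples of its group, and tool versions are not given in the sources used here. The deposited lists, 1 per group, have 3 columns of positions (chromosome, start of the left anchor, end of the right anchor) and hold no count, score or other measure of strength. A loop missing from a list may therefore lie just short of the caller's limit, and read depth is unknown.

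Carriage returns were removed from the STAG2-KD list, which has 1 line off the 5 kb grid. Anchors were taken as 5 kb wide, distance as that between anchor midpoints, and starts from GENCODE release 44 lifted to GRCh37. Coordinates are counted from 1. Intervals are exact binomial (Clopper-Pearson) or order-statistic intervals at 95%, with 1 list per group and no test. Genes whose counts differed by 3 or more were named from the wider lists. Members and gene lists were chosen with earlier results of these data known. The CTCF search and both alternatives on canonical and outermost starts were added after the lists were seen. Motifs were matched exactly on both strands. The partner of 1 IFI16 loop and 1 marker gene are not reported here.

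Functions were tested on simulated data, where all planted counts were recovered at 200 of 200 genes. Python 3.11.15, numpy 2.4.6, pandas 2.3.3, scipy 1.17.1 and matplotlib 3.10.9 were used. The alternatives were other definitions of a start, wider anchors, a limit of 1 Mb, tolerances of 1 and 2 bins for sharing, the list without the line off the grid, and each gene left out in turn.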

Additional observations from a re-analysis of the deposited data

How the results depend on the processing

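Of 306 values recomputed under the alternatives, 226 were counts, shares or medians. Of these, 218 stayed within their interval or 1.5 times of the value reported. The other 80 were differences per gene, judged by their sign alone, and 75 kept it. Some alternatives could not move a value: no loop at the 10 genes was longer than 990 kb, and IFIH1, TLR3 and IKBKE had no loop to leave out. The number of loops at the 10 genes in WT (27) was 15 with the canonical transcript only, and ranged from 16 to 27 when each gene was left out in turn, the lowest without IFI16. In STAG2-KD that range was 16 to 24. The share of partner anchors with a start depended on what counted as a start. With 1 start per protein-coding gene it was 38.5% in WT and 30.4% in STAG2-KD, and with starts within 5 kb of the anchor it was 91.3% in STAG2-KD. Without the outermost IFI16 start it was 89.5% in WT. Leaving out each gene in turn gave 65% to 93.8% in WT and 52.6% to 81.3% in STAG2-KD, the highest values without IFI16. These moves follow from how a start is defined and from the weight of IFI16, which held 11 of the 27 WT loops.

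The difference in loops, STAG2-KD minus WT, reversed at 2 genes. At TBK1 it was -1 as reported and 1 with protein-coding transcripts only, with 1 start per gene and with the canonical transcript only. At IFI16 it was -3 as reported and 1 with the canonical transcript only and without the outermost IFI16 start. The other genes kept their direction under each of these alternatives. With anchors allowed to differ by 1 bin, 15 WT loops were shared, and by 2 bins, 17, against 13 as reported. Leaving out each gene in turn gave 9 to 13 shared loops and medians of 57.5 to 87.5 kb in WT and 75 to 100 kb in STAG2-KD. Starts within 5 kb of an anchor gave 8 genes with a loop in WT and 7 in STAG2-KD, since IFIH1 then had 1 in each. That gain rested on the IFIH1 transcript near the 3' end of the gene, which is not protein-coding, and not on the canonical start.

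No paired analysis was possible because only 1 list per group was analysed. For the same reason no replicate was left out, and without a score no stricter limit was set. The lack of read counts limits every count of 1 loop, as at CGAS, to a description.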
